A study of Mus musculus with 8 samples.

Results

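Total RNA of mouse brain was compared with total RNA of mouse heart, gene by gene, in 4 libraries. The brain was sampled once as flash-frozen tissue and once as formalin-fixed, paraffin-embedded tissue (FFPE), and so was the heart, which gave 2 libraries for each organ. The genotype, strain, sex and age of the mice are not given in the labels used here, nor is the number of mice behind a library. RNA was extracted with Trizol, after removal of paraffin for FFPE tissue, and sheared by sonication. Of the 27179 genes in the deposited table, 14417 were compared, namely those with a log2 value above 0 (1 CPM, counts scaled to a library of 1000000 reads) in at least 2 of these 4 libraries, and 12762 were not. The filter lets in genes through 1 organ alone: 1666 genes were above 1 CPM in both brain libraries and in no heart library, 807 in both heart libraries and in no brain library, and 10816 in all 4.

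Brain tissue is built of neurons, which signal through vesicle release and ligand-gated receptors, and of glia, among them the oligodendrocytes that make myelin and the astrocytes that take up transmitter. Heart muscle is built of cardiomyocytes packed with sarcomeres and mitochondria, which burn mainly fatty acids and cycle calcium at every beat, and is densely supplied with capillaries and fibroblasts. Many enzymes and channels exist as related genes, one used chiefly in nervous tissue and one chiefly in striated muscle, so the same reaction can be carried by different genes in these organs.

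The libraries held 16807233 and 10180972 reads for frozen and FFPE brain, and 20526813 and 15848065 reads for frozen and FFPE heart. All values below are CPM on the authors' effective library sizes, and where an organ has a pair of values the frozen library comes before the FFPE library. Mitochondrial ribosomal RNA took 27.2 and 26.8% of reads in brain, against 55.6 and 45.2% in heart. A count of 3 reads, used as the floor for genes without reads, stood for 0.119 and 0.168 CPM in brain and for 0.292 and 0.227 CPM in heart. Floors and intervals cover counting error only, since these reads carry no molecular identifiers and can be copies of 1 molecule.

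Defining markers of each organ were high in its own libraries. Syn1, synapsin 1 of synaptic vesicles, had 97.4 and 119 CPM in brain, against 0.0975 and 1.21 CPM in heart. Mbp, myelin basic protein, had 848 and 809.5 CPM in brain, against 3.02 and 10.5 CPM in heart. Tnnt2, cardiac troponin T, had 1.59 and 0.726 CPM in brain, against 2686 and 2120 CPM in heart. Markers of other tissues that a dissection could carry were counted too. The summed level of 11 hepatocyte genes was 17.4 and 64.5 CPM in brain, against 3.22 and 3.41 CPM in heart, and 62.9 CPM of the FFPE brain value was Ttr, which choroid plexus also makes. Over 10 kidney tubule genes the sum was 5.23 and 5.86 CPM in brain, against 5.36 and 8.72 CPM in heart. Over 9 lung and airway genes it was 3.45 and 8.49 CPM in brain, against 87.3 and 55.1 CPM in heart, nearly all of it in heart from Hopx, which heart muscle also expresses, while the surfactant gene Sftpc stood at 0.0397 and 0.112 CPM in brain and 0 and 0.228 CPM in heart. Over 10 adipocyte genes it was 2.14 and 4.41 CPM in brain, against 352 and 319 CPM in heart, carried in heart by Fabp4 and Plin4, which capillaries and heart muscle also use, while the fat cell hormone Adipoq stood at 0 and 0.0558 CPM in brain and 0 and 0.152 CPM in heart. Over 12 skeletal muscle genes it was 25.4 and 44.9 CPM in brain, against 635 and 552 CPM in heart, mostly from Ckm, which heart muscle shares.

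The libraries of an organ stood apart in sex-linked and regional genes, as the heat map of such genes shows. Xist, the RNA that coats the inactive X chromosome, had 522 and 556 CPM in brain, against 0.682 and 353 CPM in heart, so it was nearly absent from frozen heart alone. Ddx3y, a Y-linked helicase gene, had 0 and 12.5 CPM in brain, against 61.8 and 17.7 CPM in heart, and Eif2s3y, Kdm5d and Uty, also Y-linked, likewise had 0 to 0.0397 CPM in frozen brain. Frozen brain thus carried Xist without Y transcripts, frozen heart carried Y transcripts with little Xist, and both FFPE libraries carried both. The differences called for Xist (5.07 ± 1.31 log2 units) and Ddx3y (−6.05 ± 1.68) were −0.58 and −0.75, and not called, in a limma fit on the other 7 libraries of the series without frozen brain. Without FFPE brain they were 10.71 and −11.36, and called. The Xist call also ended with the difference near as large, in the fit on all 8 libraries (adjusted p = 0.109), without the preservation term (0.108), and without frozen or FFPE heart (differences of 4.83 and 5.31). The Ddx3y call held in the limma fit on all 8 libraries (adjusted p = 0.0437), and it ended without the preservation term (0.0789) and without frozen or FFPE heart (differences of −3.95 and −8.15). Organ and sex cannot be told apart in the frozen libraries.

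**Figure D1:**
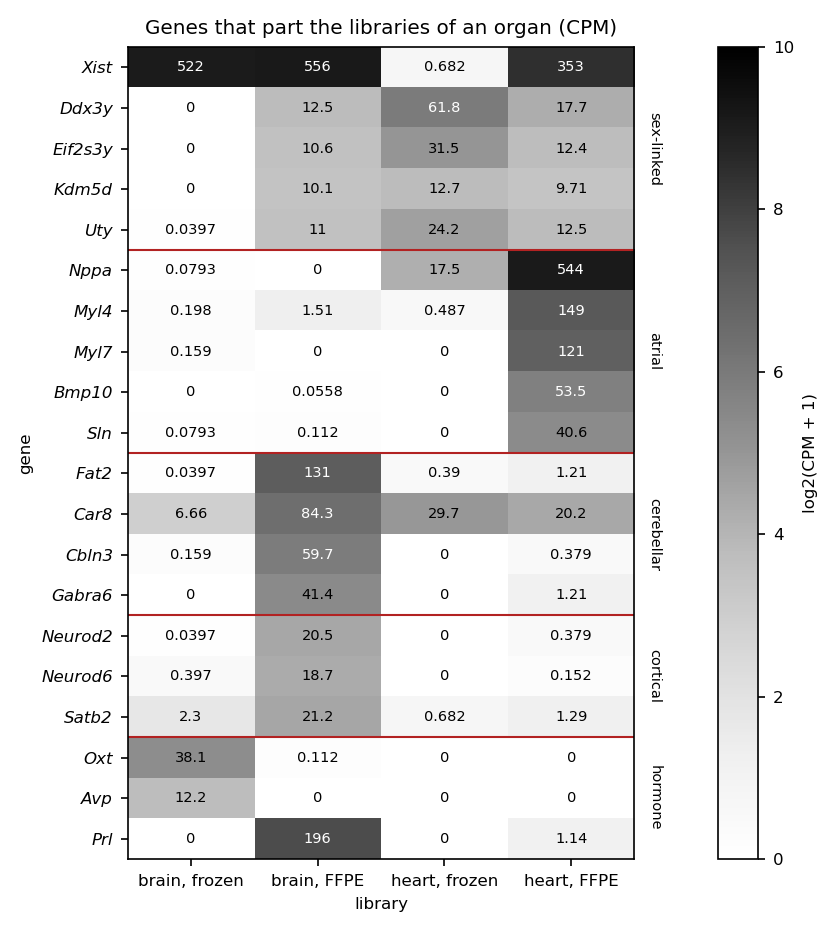
Heat map of 20 genes that part the libraries of an organ, with genes in rows, the 4 libraries in columns, CPM printed in each cell and shade giving log2(CPM + 1). Xist is at 0.682 CPM in frozen heart and at 353 to 556 CPM elsewhere, and the atrial genes Myl7, Bmp10 and Sln are at 0 CPM in frozen heart and at 40.6 to 121 CPM in FFPE heart.

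Regional genes also parted the libraries. Cerebellar transcripts were in FFPE brain but hardly in frozen brain: Fat2, a cadherin of granule cells, had 0.0397 and 131 CPM, Cbln3, a synapse organiser of granule cells, 0.159 and 59.7 CPM, and Gabra6, a granule cell GABA receptor subunit, 0 and 41.4 CPM in brain, all against at most 1.21 CPM in either heart library. The cortical transcription factor genes Neurod2 and Neurod6 had 0.0397 and 20.5 CPM and 0.397 and 18.7 CPM in brain, against at most 0.379 CPM in heart. The hypothalamic hormone genes Oxt (oxytocin) and Avp (vasopressin) ran the other way, at 38.1 and 0.112 CPM and at 12.2 and 0 CPM in brain, with no read in heart. Prl, the pituitary hormone prolactin, had 0 and 196 CPM in brain, against 0 and 1.14 CPM in heart. In heart, the atrial genes differed in the same manner. Myl7, the atrial myosin light chain, had 0.159 and 0 CPM in brain and 0 and 121 CPM in heart, and Nppa, atrial natriuretic peptide, had 0.0793 and 0 CPM in brain and 17.5 and 544 CPM in heart. Of these genes, Cbln3, Neurod2, Neurod6, Oxt, Avp and Myl7 did not pass the filter.

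Of the 14417 genes tested, 8173 (56.7%) passed limma's test with Benjamini-Hochberg adjustment at the 0.05 level, in a fit with a term for organ and a term for preservation. Brain was higher at 4716 genes (32.7%) and lower at 3457 (24.0%). Counts of list members below are to be read beside these shares. Some counts are also given with CPM of all reads, on the total reads of a library in place of its effective size. Those are to be read beside 9034 of the 14417 genes higher and 1324 lower under that scaling. Each organ has 2 libraries and nothing in the labels ties them to separate animals, so the p-values do not measure spread between animals. A gene's own spread is how far its frozen and FFPE differences disagree, with 1 residual degree of freedom. It is drawn toward a trend over all genes, with 10.7 prior degrees of freedom. A gene whose frozen and FFPE differences disagree widely can thus still be called. Called genes over 8-fold apart with the same sign in both preparations numbered 2121 higher in brain (14.7%) and 993 lower in brain (6.89%). Above 64-fold, 818 genes were higher and 199 lower in brain. Above 512-fold the balance was the other way, with 24 higher and 59 lower in brain. These fold counts include genes without reads in 1 organ, whose fold is set by the 0.5 added to each count. A gene without reads stood at −5.66 and −5.16 log2 units in brain, against −4.36 and −4.72 in heart. Among called genes, 246 higher in brain had no heart read and 27 lower in brain had no brain read. The balance at large folds thus depends on these limits of detection. Of the calls, 57.7% were higher in brain. That share was 46.6% under quantile normalization and 87.2% with CPM of all reads, and the median difference of all genes tested, 0.23 log2 units as deposited, stood at −0.13, −0.06 and 1.56 under quantile normalization, median centring and CPM of all reads, so a gene or list with a small difference changes direction with the scaling.

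The organ difference went the same way in both preparations at most genes. Over the 14417 genes the frozen difference (frozen brain minus frozen heart) and the FFPE difference correlated across genes at Pearson r = 0.939 and Spearman rho = 0.917. This is a description, since genes are not independent replicates and both differences share the scaling and the filter. The sign was the same at 12432 genes (86.2%), and 77.2% of genes had differences within 1 log2 unit of each other. Among called genes the sign was opposite at 6. The median difference was 0.26 in frozen and 0.20 in FFPE tissue, with an SD over genes of 3.05 and 2.65.

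**Figure D2:**
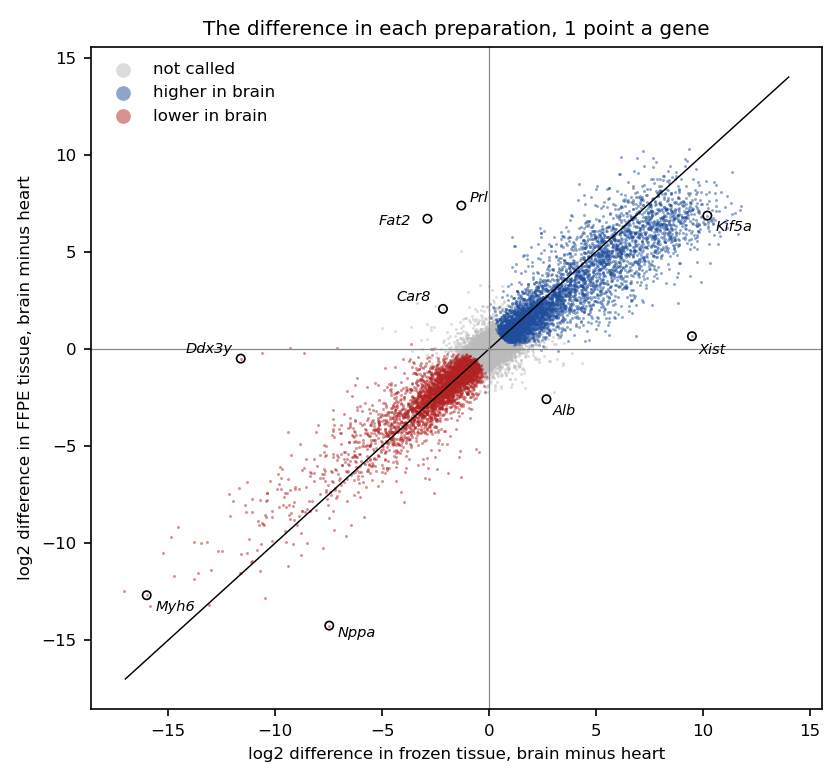
Brain minus heart log2 difference in frozen tissue (horizontal axis) and in FFPE tissue (vertical axis), 1 point for each of 14417 genes, coloured by limma call, with the line of equality. Most points follow the line, with a smaller spread in FFPE (SD 2.65) than in frozen tissue (SD 3.05), while the circled genes Fat2, Car8, Alb, Prl, Xist, Ddx3y and Nppa lie away from it and Myh6 and Kif5a mark the ends.

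Genes that mark one organ were still counted at low levels in the other. The 2121 genes over 8-fold higher in brain summed in heart to 2.17% of their brain level in frozen and to 3.90% in FFPE tissue. The 993 genes over 8-fold lower in brain summed in brain to 3.87% of their heart level in frozen and to 2.51% in FFPE tissue. For the 195 brain-higher genes above 100 CPM in both brain libraries, the median share in heart was 0.876% in frozen and 1.89% in FFPE tissue. For the 167 heart-higher genes above 100 CPM in both heart libraries, the median share in brain was 2.39% in frozen and 3.09% in FFPE tissue, the other order of preparations from their summed share. These genes were chosen by this contrast, so the values are descriptive. Bulk RNA does not tell fewer cells of a type from less RNA per cell, here or below.

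Of the 10 genes furthest above heart among genes with at least 4 reads in each library, 9 are described, and they include neuronal and astrocytic genes. Kif5a, a motor protein of axonal transport, had 1090 and 739 CPM in brain, against 0.877 and 6.29 CPM in heart, a difference of 8.53 ± 0.54 log2 units (SE; limma adjusted p = 9.90e-08). Slc1a2, the astrocyte transporter that clears glutamate, had 1258 and 1634 CPM in brain, against 2.34 and 8.72 CPM in heart (8.29 ± 0.32). Gad2, which makes the transmitter GABA, had 257 and 102 CPM in brain, against 0.39 and 0.91 CPM in heart (7.97 ± 0.48). The other genes were Snhg11, a long non-coding RNA, Cntn1 and Nrcam, adhesion proteins of axons, Trank1, Unc80, a subunit of the sodium leak channel complex, and Myt1l, a neuronal transcription factor, at 7.86 ± 0.31 to 8.24 ± 0.41. In all 9 both brain libraries stood above 100 CPM and both heart libraries below 10 CPM. The brain-higher genes of highest level over 8-fold apart were Meg3, a maternally expressed non-coding RNA, at 2836 and 2991 CPM in brain, against 9.94 and 30.4 CPM in heart, Slc1a2, Map1b and Map1a, microtubule proteins of neurites, Kif5a, Snhg11, Bc1, a small cytoplasmic RNA of dendrites, and Mbp.

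**Figure D3:**
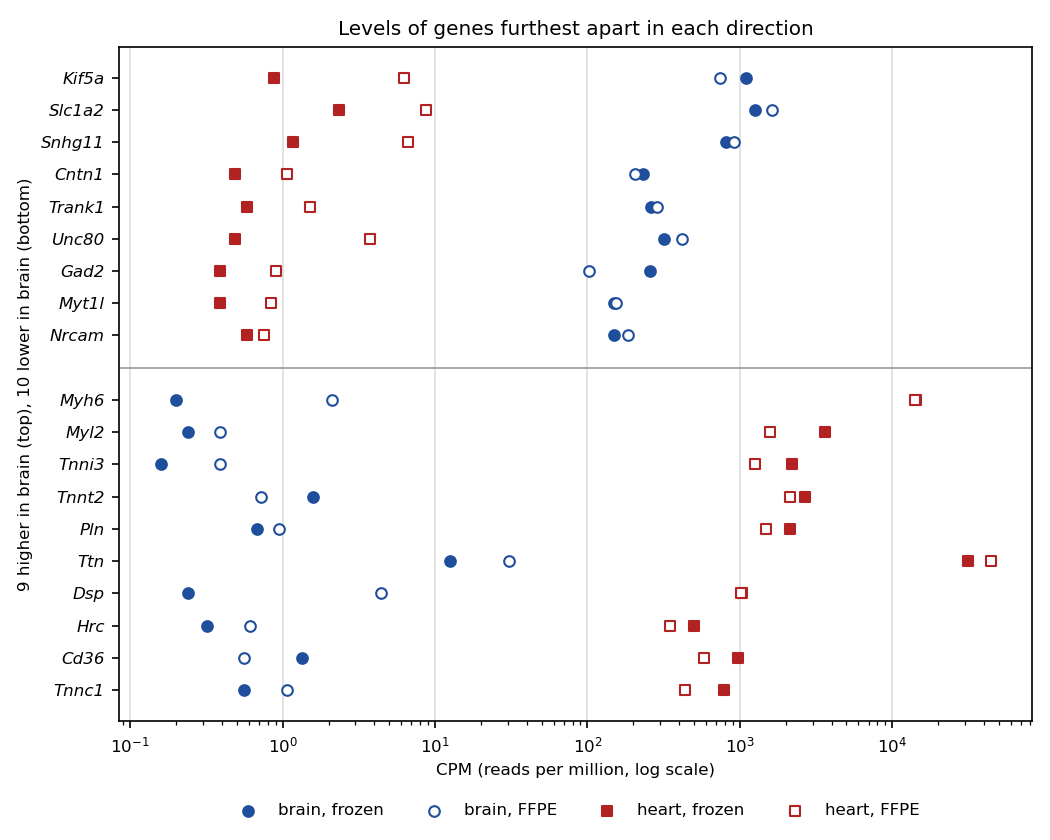
Level in CPM (log axis) of 9 genes higher and 10 lower in brain, among those furthest apart with at least 4 reads in every library; circles are brain, squares heart, filled frozen and open FFPE. Brain circles and heart squares do not overlap for any gene, and open squares of the upper 9 genes lie right of the filled ones.

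Nearly all genes of transmitter release and reception were higher in brain. All 22 genes of vesicle release were called higher (median difference 6.41 log2 units, against 0.23 for all genes tested), as were 17 of 18 postsynaptic scaffold and adhesion genes (5.69), 16 of 16 glutamate receptor genes (6.94), 15 of 15 GABA and glycine receptor genes (7.93) and 14 of 15 genes of transmitter synthesis and transport (7.54, with 2 more listed genes not tested), where 32.7% of all genes were. The genes not called were Shank3, a postsynaptic scaffold, and Ddc, which makes dopamine. Syt1, the calcium sensor of release, had 366 and 432 CPM in brain, against 0.0975 and 2.35 CPM in heart (9.39 ± 0.62, limma adjusted p = 1.39e-07). Bsn, a scaffold of the presynaptic active zone, had 209 and 395 CPM in brain, against 0.78 and 2.2 CPM in heart (7.72 ± 0.28). Gria2, an AMPA receptor subunit, had 279 and 370.1 CPM in brain, against 0.292 and 1.44 CPM in heart (8.82 ± 0.38). Gabrb2, a GABA-A receptor subunit, had 169 and 192 CPM in brain, against 0 and 1.14 CPM in heart (9.56 ± 0.74). Slc17a6, a vesicular glutamate transporter, had 1 heart read in all, at 71.5 and 44.3 CPM in brain, against 0 and 0.0758 CPM in heart, a ratio of 1412 (95% counting interval 253 to 55771). At these 5 genes the brain libraries did not overlap the heart libraries. They overlapped at Shank3 (88.6 and 115 CPM in brain, against 50.7 and 111 CPM in heart). They also overlapped at Slc17a7, a vesicular glutamate transporter of cortical neurons that was called higher (5.08 and 156 CPM in brain, against 2.73 and 16.3 CPM in heart, 2.07 ± 0.45). That call ended in the limma fit on all 8 libraries of the series (adjusted p = 0.122), and the difference was 0.41 without FFPE brain and 3.72 without frozen brain. The vesicle list summed to 3976 and 4721 CPM in brain, against 91.1 and 144.8 CPM in heart.

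Excitability, structure and splicing followed. All 20 neuronal voltage-gated channel genes (median 6.77, or 6.38 with the gene without heart reads set at its bound), all 16 neuronal cytoskeleton genes (7.16) and 14 of 15 neuronal splicing regulators (7.24) were higher in brain, where 32.7% of all genes were. Cacng2, an AMPA receptor auxiliary protein kept in the channel list, had no heart read, at 17.3 and 26.2 CPM in brain, against 0 and 0 CPM in heart, so brain was at least 82.6-fold higher. Scn2a, a neuronal sodium channel, had 211 and 249.8 CPM in brain, against 0.682 and 1.52 CPM in heart (7.75 ± 0.31). Rbfox3, the splicing factor known as NeuN, had 44.7 and 73.9 CPM in brain, against 0.0975 and 0.607 CPM in heart (7.55 ± 0.47). Of 16 neural transcription factor genes tested, 11 were higher in brain (median 6.32, or 5.80 with bounds), among them Myt1l, Zic1 and Pou3f3. Rest, the repressor of neuronal genes, was among the 3 that were lower, at 5.12 and 3.02 CPM in brain, against 17 and 15.3 CPM in heart (−2.03 ± 0.35). The others were Nfia and Nfix, both expressed in many organs, and the direction of both turned with CPM of all reads.

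Myelin and astrocyte genes were higher in brain with 1 exception. All 16 oligodendrocyte and myelin genes were higher in brain (median 7.26, or 6.97 with bounds). Mag, a myelin adhesion protein, had 103 and 61.3 CPM in brain, against 0.0975 and 0.303 CPM in heart (8.47 ± 0.51). Olig1, the oligodendrocyte transcription factor, had no heart read, at 40.3 and 23.3 CPM in brain, against 0 and 0 CPM in heart, and brain was at least 119-fold higher. Of 15 astrocyte genes 14 were higher (median 6.61, or 6.10 with bounds). Slc1a3, a second astrocyte glutamate transporter, had 220.0 and 159.8 CPM in brain, against 0.39 and 1.59 CPM in heart (7.79 ± 0.46). Gja1, connexin 43, was the astrocyte gene that was lower, at 104 and 81.1 CPM in brain, against 363 and 242 CPM in heart (−1.69 ± 0.24), and it is also the main gap junction protein of ventricular muscle. Of 15 microglial genes tested, 6 were higher and 4 lower (median 0.85), shares near the 32.7% and 24.0% of all genes tested, with 3 and 3 without frozen brain, 5 and 1 without FFPE brain, and 4 and 4 without FFPE heart. Cx3cr1, a chemokine receptor of microglia, had 18.3 and 10.2 CPM in brain, against 2.73 and 2.2 CPM in heart (2.46 ± 0.39). The 4 lower genes were C1qa, C1qc and C1qb, complement genes that other tissue macrophages share, and Olfml3. With CPM of all reads 11 were higher and none lower, where 9034 and 1324 of all 14417 genes were. The median less that of all genes tested was 0.62 as deposited and with CPM of all reads, and near 0 under quantile normalization.

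**Figure D4:**
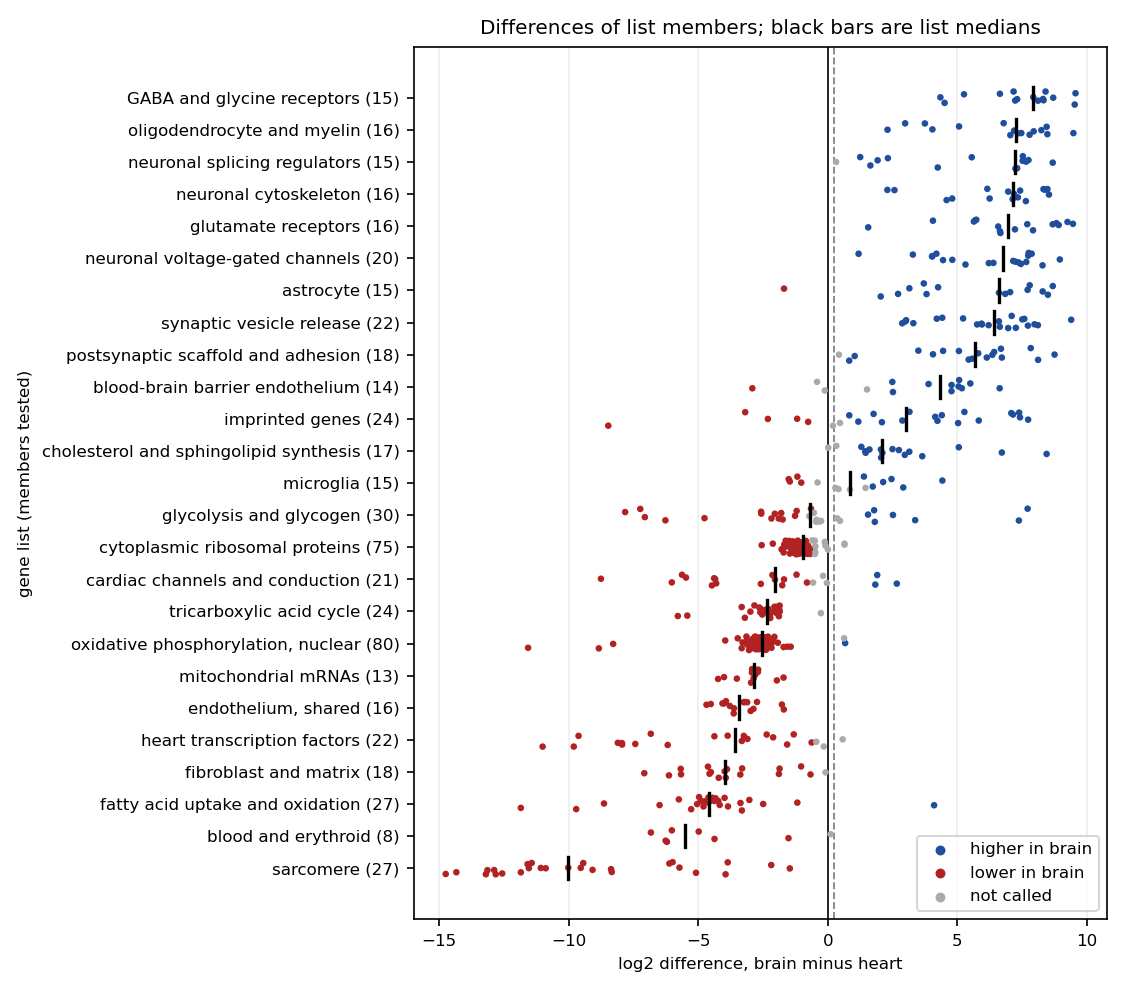
Log2 difference, brain minus heart, of the tested members of 25 gene lists; each point is a gene coloured by its limma call, black bars are list medians and the dashed line is the median of all genes tested (0.23). Medians run between 7.93 for GABA and glycine receptors and −10.02 for the sarcomere, with microglia, glycolysis and ribosomal proteins near the dashed line.

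Most regional and peptide genes of brain that could be tested were higher. Of 16 forebrain genes tested, 15 were higher (median 5.70, or 5.29 with bounds). Rgs9, a striatal regulator of G protein signalling, had 85 and 84.2 CPM in brain, against 0.195 and 0.986 CPM in heart (7.40 ± 0.48), and Ppp1r1b, the striatal phosphoprotein DARPP-32, had 63.1 and 49.9 CPM in brain and 0 and 2.27 CPM in heart (7.39 ± 0.96), so both brain libraries carried striatal transcripts at like levels. Prox1, which marks dentate granule cells and also acts in heart muscle, was the one lower, at 19.8 and 20.2 CPM in brain, against 43.8 and 52.3 CPM in heart (−1.26 ± 0.25), with its sign turned by CPM of all reads. Of 9 cerebellar and hindbrain genes tested 6 were higher, and the 3 not called were Gabra6, Fat2 and Car8. Fat2 and Car8 had opposite signs in frozen and FFPE tissue, and Gabra6 had no read in either frozen library. All 10 neuropeptide genes tested were higher (median 5.79, or 4.54 with 5 genes at their bound), where 32.7% of all genes were, and 6 of the 16 listed were not tested. The 5 genes without heart reads passed the filter through brain alone, so their direction was set by it. The same holds for genes without heart reads in the other lists. Cck, cholecystokinin, had no heart read, at 10.9 and 29.8 CPM in brain, against 0 and 0 CPM in heart, and brain was at least 69.9-fold higher. Of 9 ependymal and choroid plexus genes tested 7 were higher (median 5.35, or 3.70 with bounds), and Aqp1, a water channel that vessels also carry, was lower (0.0397 and 0.558 CPM in brain, against 155 and 199 CPM in heart, −9.88 ± 0.57), as was Rarres2.

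Heart-higher genes were led by the sarcomere, whose largest differences exceeded those of the brain genes above. Myh6, the alpha myosin heavy chain of the mouse heart, had 0.198 and 2.12 CPM in brain, against 14325 and 14171 CPM in heart (−14.35 ± 0.54 log2 units, limma adjusted p = 3.73e-09). Myl2, the ventricular regulatory light chain, had 0.238 and 0.391 CPM in brain, against 3607 and 1566 CPM in heart (−12.82 ± 0.37). Ttn, the titin spring of the sarcomere, had 12.5 and 30.6 CPM in brain, against 31600 and 44120 CPM in heart (−10.89 ± 0.33). The other 7 of the 10 genes furthest below heart, among genes with at least 4 reads in every library, were Tnni3, Tnnt2 and Tnnc1, the troponin subunits, Pln, phospholamban, Dsp, desmoplakin, Hrc, a calcium-binding protein of the sarcoplasmic reticulum, and Cd36, the fatty acid transporter, at −12.57 ± 0.40 to −9.54 ± 0.37. All 27 sarcomere genes tested were lower in brain (median −10.02), where 24.0% of all genes were. Ankrd1, a titin-associated stress protein, had no brain read, at 0 and 0 CPM in brain, against 170.4 and 263 CPM in heart, and was at least 1500-fold lower in brain. The summed level of the list, 149.5 and 183 CPM in brain, against 70320 and 78870 CPM in heart, came in brain mostly from Tpm1, Nebl and Cryab. The Nebl call (−1.47 ± 0.24) ended in the limma fit on all 8 libraries of the series (adjusted p = 0.127), and whichever 1 of the 4 was left out of it (differences of −2.37 to −0.57). Of 13 genes of the intercalated disc, which joins cardiomyocytes, 12 were lower in brain (median −3.72), led by Xirp1, Dsp and Nrap.

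Calcium cycling and conduction were less uniform. Of 15 calcium handling genes 12 were lower in brain (median −3.57), where 24.0% of all genes were. Pln, the inhibitor of the calcium pump, had 0.674 and 0.949 CPM in brain, against 2136 and 1479 CPM in heart (−11.08 ± 0.28). Ryr2, the cardiac calcium release channel, had 144 and 295 CPM in brain, against 2170 and 2774 CPM in heart (−3.57 ± 0.31), and Atp2a2, the calcium pump SERCA2, had 351 and 440.4 CPM in brain and 7562 and 5884 CPM in heart (−4.08 ± 0.37). Fkbp1b, calstabin 2, was higher in brain at 2.5 and 2.85 CPM in brain, against 0.487 and 0.455 CPM in heart (2.39 ± 0.64), a call that ended without the frozen brain library (adjusted p = 0.0513) and without the FFPE heart library (0.0543) in limma fits with the other 7 libraries of the series. Of 21 cardiac channel and conduction genes 15 were lower (median −2.04) and Kcnd2, Kcnd3 and Hcn2, voltage-gated channels used in both organs, were higher. With CPM of all reads 9 were lower and 5 higher, where 1324 and 9034 of all 14417 genes were. Leaving out each library in turn left 11 to 12 lower and 1 higher, and Kcnd2 and Kcnd3 were not called in those fits. Popdc2, a membrane protein of heart muscle that binds cyclic AMP, had 0.238 and 0.279 CPM in brain, against 122 and 121 CPM in heart (−8.76 ± 0.38). Hcn4, the pacemaker channel, had 5.75 and 5.81 CPM in brain, against 4.58 and 7.58 CPM in heart and was not called (−0.03 ± 0.39).

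Of 22 heart transcription factor genes tested, 19 were lower in brain and none was higher (median −3.59), where 24.0% and 32.7% of all genes were. Gata4, an early cardiac factor, had no brain read, at 0 and 0 CPM in brain, against 43.1 and 54.4 CPM in heart, and was at least 343-fold lower in brain. Tbx5, also without brain reads, was at 0 and 0 CPM in brain, against 11.4 and 30.0 CPM in heart, at least 131-fold lower. Tbx20, a cardiac T-box factor, had 0 and 0.614 CPM in brain, against 90.1 and 113 CPM in heart (−9.81 ± 0.82). Mef2c, a factor of both heart muscle and cortical neurons, had 44.1 and 148 CPM in brain, against 55.6 and 53.1 CPM in heart and was not called (0.57 ± 0.35). Without FFPE brain its difference was −0.24 and without frozen brain it was 1.38 and called (limma adjusted p = 0.00355). Of 9 natriuretic and atrial genes tested 8 were lower in brain, and some of their levels differed between the heart libraries. Myl4, an atrial light chain, had 0.198 and 1.51 CPM in brain, against 0.487 and 148.5 CPM in heart, and its difference (−3.95 ± 0.93) was −0.55, and not called, without FFPE heart. The call also ended with the difference near as large, in the limma fit on all 8 libraries (adjusted p = 0.0583), without the preservation term (0.189), and without frozen or FFPE brain (differences of −4.09 and −3.81).

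Most genes that feed and run mitochondria were lower in brain. Of 80 nuclear genes of oxidative phosphorylation 78 were lower (median −2.55), of 24 genes of the tricarboxylic acid cycle 23 (−2.35), of 27 genes of fatty acid uptake and oxidation 26 (−4.57) and all 13 messenger RNAs of the mitochondrial genome (−2.87). Over all genes tested 24.0% were lower. Of the 13, 1 had opposite signs in frozen and FFPE tissue although called. The median of the 13 was −3.21 to −2.56 with a library left out. With CPM of all reads 69 of 80, 15 of 24, 25 of 27 and 11 of 13 were lower, and the tricarboxylic acid cycle median was −1.02. Under quantile normalization 8 of the 13 mitochondrial messenger RNAs were lower (median −1.22), with 78, 23 and 26 lower in the other lists. Lpl, lipoprotein lipase, had 4.92 and 6.48 CPM in brain, against 2860 and 1786 CPM in heart (−8.64 ± 0.28). Fabp3, the heart fatty acid binding protein, had 8.8 and 5.75 CPM in brain, against 894 and 464 CPM in heart (−6.49 ± 0.24). Idh2, mitochondrial isocitrate dehydrogenase, had 13.9 and 7.09 CPM in brain, against 678 and 449 CPM in heart (−5.79 ± 0.24). Sdhb, a subunit of complex II, had 30.0 and 18.2 CPM in brain, against 303 and 181 CPM in heart (−3.32 ± 0.23). The median of the oxidative phosphorylation list was −2.71 in frozen and −2.40 in FFPE tissue, and that of the fatty acid list −4.56 and −4.43. Reads of mitochondrial messenger RNAs are uncertain where nuclear copies of the mitochondrial genome share them. Of 12 genes of ketone and branched-chain amino acid breakdown, 8 were lower, or 5 with CPM of all reads, and Bcat1, the cytosolic transaminase, was higher (56.9 and 42.4 CPM in brain, against 0.975 and 2.27 CPM in heart). Acat1, the mitochondrial acetoacetyl-CoA thiolase, had 39.7 and 25.9 CPM in brain, against 282 and 158 CPM in heart (−2.72 ± 0.23).

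Glycolytic genes went both ways. Of 30 tested, 7 were higher and 15 lower in brain (median −0.68, and 0.65 with CPM of all reads, where 12 were higher and 8 lower). Over all genes tested 32.7% were higher and 24.0% lower, and with CPM of all reads 9034 and 1324 of 14417 were. Slc2a4, the insulin-responsive glucose transporter, had 0.634 and 0.335 CPM in brain, against 104 and 118 CPM in heart (−7.82 ± 0.38). Aldoc, the brain aldolase, had 205 and 169.7 CPM in brain, against 0.487 and 1.44 CPM in heart (7.71 ± 0.39). Pgam2, the muscle phosphoglycerate mutase, had 1.19 and 0.503 CPM in brain, against 121 and 121 CPM in heart (−7.24 ± 0.36). Several genes at the ends of this list are tissue forms of the same enzymes.

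Tissue forms were set side by side in 31 gene families, each with 1 form listed as neural and 1 listed as cardiac. Some listed as neural serve other tissues too, such as Cox6a1, Hk1 and Actb. Their high share in brain can rest on a low level of the muscle form. In 20 families the neural form was called higher and the cardiac form lower in brain. Over all families the neural form was higher in 24, lower in 3 and not called in 4, while the cardiac form was lower in 27, higher in 2 and not called in 2. Among all genes tested 32.7% were higher and 24.0% lower. Within each library the share of the neural form was also computed per transcript length, taken as the merged protein-coding exons of each gene. No single scaling factor for a library can move this ratio. Its level, and so its side of 50%, depends on these lengths, while its order between libraries does not. The neural share was higher in both brain libraries than in both heart libraries in all 31 families, and in 23 it was above 50% in both brain libraries and below 50% in both heart libraries. These families were listed because their forms are known to differ in use between tissues, so the count describes how far these data show it.

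**Figure D5:**
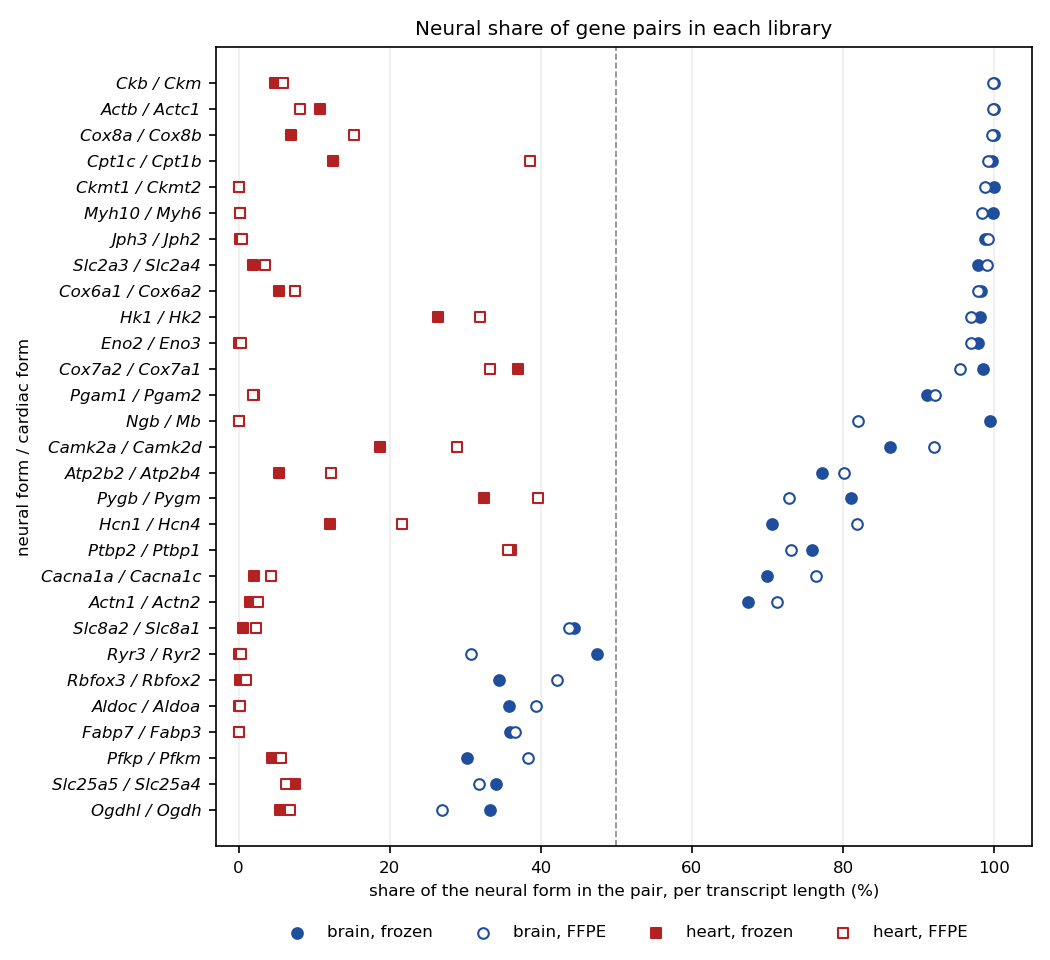
Share of the neural form in 29 of the 31 gene pairs, per transcript length (merged protein-coding exons), in percent; circles are brain, squares heart, filled frozen and open FFPE, and the dashed line marks 50%. All circles lie right of all squares in their row, and in 8 rows, among them Aldoc / Aldoa and Ryr3 / Ryr2, the brain circles stay below 50%.

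Energy enzymes are given first. Ckb, brain-type creatine kinase, made up 100 and 99.9% of the pair with muscle-type Ckm in brain, against 4.89 and 5.95% in heart. Ckb had 271 and 215 CPM in brain, against 16.4 and 14.6 CPM in heart (3.96 ± 0.23), and Ckm had 0 and 0.503 CPM in brain and 593 and 431 CPM in heart (−12.27 ± 0.84). The mitochondrial pair of Ckmt1 and Ckmt2 stood at 99.9 and 98.8% Ckmt1 in brain, against 0.0374 and 0.0456% in heart. Enolase was 97.8 and 97.0% Eno2 in brain, against 0.0691 and 0.371% in heart, with Eno3 as the muscle form. Phosphoglycerate mutase was 91.1 and 92.1% Pgam1 in brain, against 2.02 and 1.91% in heart. Carnitine palmitoyltransferase 1 was 99.7 and 99.2% Cpt1c, the neuronal form, in brain, against 12.4 and 38.6% in heart. Cpt1b, its muscle form, was counted low even in heart, at 0.0793 and 0.223 CPM in brain, against 4.97 and 5.38 CPM in heart.

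Subunits of cytochrome c oxidase, the last complex of the respiratory chain, divided in the same manner while the chain as a whole was lower in brain. Cox6a1, the form found in most tissues, had 29.8 and 23.9 CPM in brain, against 18.6 and 15.1 CPM in heart (0.67 ± 0.26), the only gene of the oxidative phosphorylation list called higher. That call ended under quantile normalization (0.41 log2 units), after median centring (0.38), and without frozen heart (0.45) or FFPE brain (0.46). Cox6a2, its striated muscle form, had 0.634 and 0.614 CPM in brain, against 396 and 222 CPM in heart (−8.84 ± 0.31). Cox8b, the muscle form of subunit 8, had 1 brain read in all, at 0 and 0.0558 CPM in brain, against 183 and 83.8 CPM in heart, a ratio of 5485 (95% counting interval 984 to 216700) in favour of heart. Cox8a had 38.9 and 29.4 CPM in brain, against 20.7 and 23.1 CPM in heart and was not called (0.63 ± 0.27). Cox7a2 was lower in brain (−2.22 ± 0.25) and so was its muscle form Cox7a1 (−8.29 ± 0.44).

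Calcium proteins, transporters and globins gave like pairs. Junctophilin, which ties the cell membrane to calcium stores, was 98.8 and 99.2% Jph3 in brain, against 0.139 and 0.402% in heart, with Jph2 as the cardiac form. The glucose transporter pair was 97.9 and 99.0% Slc2a3 in brain, against 1.96 and 3.57% in heart. Globins stood at 99.5 and 81.9% Ngb, neuroglobin, in brain, against 0.00681 and 0.0129% in heart, where Mb, myoglobin, had 3533 and 2425 CPM. Ngb itself was low (9.52 and 1.23 CPM in brain, against 0.292 and 0.379 CPM in heart), and its call (3.20 ± 0.80) ended without frozen brain, where the difference was 1.49, and without either heart library.

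Pygb, brain glycogen phosphorylase, was lower in brain (−2.18 ± 0.29), and so was the muscle form Pygm (−4.76 ± 0.23). Rbfox2, listed as the cardiac splicing form, had 125 and 149 CPM in brain, against 65.4 and 92 CPM in heart and was higher in brain (0.82 ± 0.23), and so was Atp2b4, a plasma membrane calcium pump (1.56 ± 0.23). Slc8a1, the cardiac sodium-calcium exchanger, was not called (233 and 323 CPM in brain, against 382 and 385 CPM in heart, −0.48 ± 0.26, with its sign turned by CPM of all reads), and its neural relative Slc8a2 was higher (5.46 ± 0.39). Hk1 and Actb, which serve both organs, were not called (0.36 ± 0.24 and 0.20 ± 0.26, with the sign of Actb turned by median centring), while their muscle relatives Hk2 (−6.27 ± 0.27) and Actc1 (−14.75 ± 0.73) were lower in brain.

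The promoter windows of the creatine kinase pair and of the most abundant cardiac myosin and actin genes are shown because Myh6 and Actc1 are among the 8 heart-higher genes of highest level and Ckb and Ckm are forms that divide between the organs. Windows are printed 5′ to 3′ on the gene's strand and run 250 bases before to 50 after the annotated start in RefSeq for GRCm38.p6. Capitals mark every match, on either strand, to the TATA element TATAAA, to the CArG box bound by SRF and to the MEF2 site, the last pair searched by name with their degenerate letters. Of 27025 genes with a window, 14.2% held TATAAA, 1.57% a CArG box and 3.26% a MEF2 site.
Myh6: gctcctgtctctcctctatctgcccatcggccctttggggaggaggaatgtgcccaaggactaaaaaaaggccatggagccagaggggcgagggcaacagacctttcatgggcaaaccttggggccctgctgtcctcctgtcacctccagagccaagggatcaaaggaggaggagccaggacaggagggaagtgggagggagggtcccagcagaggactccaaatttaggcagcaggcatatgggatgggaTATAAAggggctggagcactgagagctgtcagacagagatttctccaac
Actc1: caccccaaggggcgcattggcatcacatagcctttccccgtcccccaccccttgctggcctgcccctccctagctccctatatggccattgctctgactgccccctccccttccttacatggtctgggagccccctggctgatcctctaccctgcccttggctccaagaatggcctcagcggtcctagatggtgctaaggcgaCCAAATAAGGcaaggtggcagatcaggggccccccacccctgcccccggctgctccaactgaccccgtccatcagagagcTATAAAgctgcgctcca
Ckm: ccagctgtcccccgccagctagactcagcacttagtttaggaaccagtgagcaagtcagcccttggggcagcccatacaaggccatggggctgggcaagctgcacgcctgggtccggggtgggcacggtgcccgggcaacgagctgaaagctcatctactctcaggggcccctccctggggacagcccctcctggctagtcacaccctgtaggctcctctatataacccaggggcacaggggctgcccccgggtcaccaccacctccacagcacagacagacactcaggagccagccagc
Ckb: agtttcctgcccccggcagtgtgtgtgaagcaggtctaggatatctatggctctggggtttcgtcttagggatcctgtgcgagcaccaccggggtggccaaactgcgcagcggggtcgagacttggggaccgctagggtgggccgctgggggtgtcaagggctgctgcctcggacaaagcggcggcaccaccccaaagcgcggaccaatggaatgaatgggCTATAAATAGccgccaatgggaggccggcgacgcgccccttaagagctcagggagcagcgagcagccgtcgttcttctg
Positions of matches count from the annotated start and are negative before it. Myh6 lies at chr14:54966558-54966857 on the minus strand and held TATAAA once, at position 2. Actc1 lies at chr2:114052826-114053125 on the minus strand and held a CArG box and TATAAA once each. Ckm lies at chr7:19410844-19411143 on the plus strand and held none of these. Ckb lies at chr12:111672289-111672588 on the minus strand and held TATAAA inside a MEF2 match, so those capitals are 1 overlapping stretch. The number of CpG dinucleotides was 2 for Myh6, 7 for Actc1, 7 for Ckm and 22 for Ckb. A match is a description of letters, and shares of the large gene sets are not given because fewer than 80% of their genes had a window.

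Vascular and stromal genes were mostly lower in brain. All 16 endothelial genes found in both organs were lower in brain (median −3.44), where 24.0% of all genes were. Kdr, the main receptor for vascular endothelial growth factor, had 7.14 and 8.15 CPM in brain, against 224 and 173 CPM in heart (−4.68 ± 0.25). Cdh5, the endothelial cadherin, had 5.55 and 6.31 CPM in brain, against 141 and 131 CPM in heart (−4.52 ± 0.25). Genes listed for blood-brain barrier endothelium went against this, with 10 of 14 tested higher in brain and 1 lower (median 4.33). Spock2 had 320 and 253 CPM of the list's summed 458 and 414 CPM in brain. Which cells carried the RNA of this list was not tested. Lef1, a factor of Wnt signalling that maintains the barrier, had 4.76 and 5.64 CPM in brain, against 0 and 0.455 CPM in heart (5.07 ± 0.83). Slco1c1, the thyroid hormone transporter, had 3 heart reads in all, at 13.6 and 20.0 CPM in brain, against 0.195 and 0.0758 CPM in heart, a ratio of 127 (95% counting interval 43.3 to 618). Slc16a1, a lactate transporter that muscle also uses, was the gene of that list that was lower (−2.92 ± 0.24), and Cldn5, the tight junction protein, had 10.9 and 7.09 CPM in brain and 13.5 and 10.2 CPM in heart and was not called (−0.42 ± 0.32, with its sign turned by CPM of all reads). Genes of cardiac endothelium and lipid supply were lower in 10 of 12 cases (median −6.11). Fabp4, Cd36 and Lpl are counted both here and in the fatty acid list above, so these lists are not separate.

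Of 18 fibroblast and matrix genes 17 were lower in brain (median −3.96), and of 12 smooth muscle and pericyte genes all 12 (−3.06). Beside these and the lists that follow, 24.0% of all genes tested were lower and 32.7% higher. Col3a1, a fibrillar collagen, had 2.3 and 2.85 CPM in brain, against 212 and 155 CPM in heart (−6.13 ± 0.29). Dcn, decorin, had 3.29 and 5.7 CPM in brain, against 309 and 158 CPM in heart (−5.67 ± 0.36). Des, desmin, had 0.674 and 0.782 CPM in brain, against 509 and 533 CPM in heart (−9.44 ± 0.27) and is also a cardiomyocyte protein. The matrix genes of neural tissue were the counterpart, with 14 of 15 higher in brain (median 6.28, or 5.42 with bounds). Ncan, neurocan, had 77.7 and 81.1 CPM in brain, against 0.195 and 0.379 CPM in heart (7.96 ± 0.41). Blood moved with these lists. The summed level of 9 red cell genes was 80.7 and 78 CPM in brain, against 2169 and 1972 CPM in heart, 7 of 8 tested were lower in brain (median −5.50), and Hbb-bs, a beta globin, had 19.3 and 11.7 CPM in brain and 1387 and 898 CPM in heart (−6.21 ± 0.23). How far blood left in the vessels bears on the endothelial or leukocyte values was not tested. Globin genes are near-identical copies, and reads may be split among them. Of 4 leukocyte genes tested, Lyz2 and Ptprc were lower and Cd4 and Coro1a higher in brain, with 0 to 2 higher when a library was left out, and the 15 listed summed to 20.0 and 16.1 CPM in brain, against 88.1 and 30.8 CPM in heart. Of 10 cardiac macrophage genes 7 were lower in brain (median −3.48), among them Cd163, a scavenger receptor, with 0.436 and 0.279 CPM in brain and 18.8 and 14.8 CPM in heart (−5.48 ± 0.50).

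Imprinted genes leaned to brain, with 17 of 24 tested higher and 5 lower (median 3.01), where 32.7% and 24.0% of all genes were. Usp29, a paternally expressed protease gene, had 111 and 45.3 CPM in brain, against 0.0975 and 1.14 CPM in heart (7.42 ± 0.74). Dlk1, a paternally expressed Notch-related protein, had 2 heart reads in all, at 40.9 and 10.2 CPM in brain, against 0 and 0.152 CPM in heart, a ratio of 329.8 (95% counting interval 91.1 to 2726). H19, a maternally expressed non-coding RNA, had 3 brain reads in all, at 0.0397 and 0.112 CPM in brain, against 44.2 and 23.7 CPM in heart, a ratio of 469.6 (95% counting interval 160.1 to 2282) in favour of heart. The other lower members were Cdkn1c, Igf2r, Igf2 and Grb10. The Igf2 and Grb10 calls ended in the limma fit on all 8 libraries (adjusted p = 0.0921 and 0.0644). The Igf2 difference was −0.55 without frozen heart and −1.82 without FFPE heart, the Grb10 difference was −1.41 without frozen brain and −0.11 without FFPE brain, and both signs turned with CPM of all reads.

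The clustered protocadherins, adhesion proteins that give single neurons an identity, split by cluster. Of 12 alpha-cluster genes tested all were higher in brain, where 32.7% of all genes were. They were low, the most abundant being Pcdhac2 with 16.1 and 15.4 CPM in brain, against 0.39 and 0.531 CPM in heart (4.98 ± 0.49). Of the 34 genes tested in both clusters, 3 had no heart read and passed the filter through brain alone. Of the gamma cluster, Pcdhgc5 (20.9 and 25.5 CPM in brain, against 2.53 and 3.87 CPM in heart, 2.86 ± 0.34) and Pcdhgc4 (1.55 ± 0.46) were called higher, and none of the other 20 was called in either direction. The Pcdhgc4 call ended without frozen brain (1.02) and without frozen heart (0.81). Some alpha-cluster calls also ended without frozen brain. With CPM of all reads 29 of the 34 were higher, where 9034 of all 14417 genes were. Genes of a cluster share their last exons, and no source used here says how the authors' counting divided such reads.

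Of 17 genes of cholesterol and sphingolipid synthesis 15 were higher in brain and none lower (median 2.10). Cyp46a1, which removes cholesterol from neurons, had 35 and 26.2 CPM in brain, against 0.0975 and 0.531 CPM in heart (6.72 ± 0.59). Sqle, squalene epoxidase, had 24.2 and 15.7 CPM in brain, against 0.487 and 0.607 CPM in heart (5.06 ± 0.47). Of 18 immediate early genes, which respond to activity and to stress, 7 were higher and 8 lower (median −0.04), where 32.7% and 24.0% of all genes were. Arc, an activity-dependent synaptic gene, had 10.6 and 55.6 CPM in brain, against 0 and 1.06 CPM in heart (6.72 ± 0.60), and FFPE brain stood well above frozen brain. Klf2, a flow-responsive factor of endothelium, had 1.39 and 4.91 CPM in brain, against 33.7 and 47.3 CPM in heart (−3.92 ± 0.37). With each library left out in turn 3 to 6 of the list were higher and 7 to 8 lower, with 3 higher without FFPE brain and 4 without frozen heart. With CPM of all reads 10 were higher and 3 lower, where 9034 and 1324 of all 14417 genes were.

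Genes often taken as constant are set beside all genes tested, of which 32.7% were higher and 24.0% lower. With CPM of all reads 9034 of all 14417 genes were higher and 1324 lower. CPM of all reads moves every gene by the same amount, so counts change with it while a list's median less that of all genes does not. Of 75 cytoplasmic ribosomal protein genes 59 were lower in brain and none higher (median −0.94), and with CPM of all reads 1 was lower and 5 higher (median 0.39). Their median less that of all genes tested was −1.17 under both, −1.17 after median centring and −1.09 under quantile normalization. Of 16 reference genes 3 were higher and 7 lower, 10 called in all where 56.7% of all genes were (median −0.47, and 0.86 with CPM of all reads). B2m had 11.2 and 12.2 CPM in brain, against 95.9 and 69 CPM in heart (−2.80 ± 0.26). Ywhaz had 247 and 217 CPM in brain, against 52 and 45.2 CPM in heart (2.25 ± 0.23), called higher under each scaling tried. Of 31 proteasome genes 10 were lower and none higher (median −0.46), a smaller share called than of all genes. After median centring 21 were lower, under quantile normalization 17, and with CPM of all reads none was lower and 13 were higher (0.87). Of 12 muscle splicing regulators 7 were lower and 2 higher (median −0.89, and 0.44 with CPM of all reads), with Rbm20, the regulator of titin splicing, at 2.93 and 3.63 CPM in brain and 127 and 231 CPM in heart (−5.70 ± 0.27).

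The genes over 8-fold apart also differed in build. Among protein-coding genes with a RefSeq entry, the median genomic span was 43022.5 bases for those over 8-fold higher in brain, against 19815 bases for those over 8-fold higher in heart and 26027 bases for all tested. Genes spanning over 100 kb made up 32.2% of the first set and 10.8% of the second, with 16.3% of all tested. Long non-coding RNAs were 5.56% of the first set and 3.73% of the second, with 2.80% of all tested. Genes on the X chromosome were 5.70% of the first set and 2.22% of the second, with 3.48% of all tested. An entry was found for 97.0%, 97.6% and 98.0% of the 3 sets. The sets were drawn from this contrast, so these are descriptions.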

How the data were processed

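Libraries of total RNA from frozen and FFPE brain and heart were analysed. Reads were aligned with HISAT2 to mm10, counted per gene with featureCounts and analysed with limma, per the submitters' processing notes, which is as far as those steps are given in the sources used here. The deposited values are log2 CPM (counts scaled to 1000000 reads) on the authors' effective library sizes, with 0.5 added to each count. Undoing this gave whole reads for 100% of values within 1e-06 of a whole number. Because the deposited unit is log2 and not counts, the test was limma 3.58.1 in R 4.3.3 on the log2 values (terms for organ and preservation, trended variance, 1 residual degree of freedom), at a Benjamini-Hochberg adjusted p under 0.05 over 14417 genes. limma's voom on the recovered reads, as an alternative, called 4813 genes higher and 3616 lower in brain. Fits that leave out a library used the other 7 of the series. Gene IDs are Entrez numbers with the symbols of the table, and 132 of the genes tested had no symbol.

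The genes, lists and families were chosen with earlier results of these data known. Named genes are the 10 furthest apart in each direction with at least 4 reads in every library, the 8 of highest level over 8-fold apart in each direction, up to 4 for each list, the paired forms, the 6 tested genes whose frozen and FFPE differences were largest in opposite directions, and sex-linked genes. List members that went against their list, regional genes of 1 library and other genes outside it were picked with their values in view. A few genes that the rule names are not reported here.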

Additional observations from a re-analysis of the deposited data

Results flagged for a closer look

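The sign of the difference between brain and heart was the same in frozen and FFPE tissue at 12432 of the 14417 genes tested. Among the rest, the 6 genes with a symbol that were furthest from 0 in both preparations, by the smaller of the differences, are given here, and none of them was called in the limma fit. With 1 library for each organ and preparation these contrasts were not tested. Fat2, the granule cell cadherin, differed by −2.88 log2 units in frozen and 6.71 in FFPE tissue. Car8, a carbonic anhydrase-related protein of Purkinje cells, differed by −2.16 in frozen and 2.06 in FFPE tissue. Both are cerebellar genes, and both were higher in FFPE brain than in frozen brain. Alb, the liver's serum albumin, differed by 2.68 in frozen and −2.59 in FFPE tissue, with 9.04 and 0.168 CPM in brain and 1.36 and 1.14 CPM in heart. Rtn4rl2, a Nogo receptor relative, differed by −3.37 in frozen and 2.39 in FFPE tissue. Gabre, a GABA receptor subunit, differed by 3.02 in frozen and −2.22 in FFPE tissue. Snord3b2, a small nucleolar RNA, differed by −2.52 in frozen and 2.21 in FFPE tissue.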

How the results depend on the processing

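Counts of calls stayed within 1.5 times the 4716 higher and 3457 lower in brain under all alternatives tried except CPM of all reads, with 9034 higher and 1324 lower. Calls over 8-fold, 2121 higher and 993 lower, became 3245 and 470 with CPM of all reads and 527 and 242 with 5 added to each CPM, which compresses low values by construction. Leaving out each library in turn gave 3895 to 4829 higher and 3156 to 3493 lower, and 1913 to 2211 and 935 to 1006 over 8-fold. The frozen and FFPE libraries share no animal or batch that the labels name. A fit with no replicate block, that is without the preservation term, gave 4321 higher and 3070 lower. The median difference in frozen and FFPE tissue was −0.145 and −0.0934 with quantile-normalized values, −0.0689 and −0.0587 with median-centred values, and 1.85 and 1.28 with CPM of all reads, with the same sign at 85.6%, 85.5% and 92.5% of genes. The cause of these shifts was not tested.

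Over 167 named genes and 2325 values under alternatives, 2132 kept direction and side of the threshold, 108 lost the call, 43 gained one and 42 turned sign, at 23 genes. With CPM of all reads the difference was 0.067 for Aldoa, 0.31 for C1qb, 1.29 for Car8, 0.92 for Cldn5, 0.57 for Grb10, 1.30 for Hcn4, 0.15 for Igf2, 0.47 for Nfia, 0.51 for Nfix, 0.16 for Olfml3, 0.074 for Prox1, 0.84 for Rtn4rl2, 0.85 for Slc8a1 and 1.18 for Snord3b2. With 5 added to each CPM the difference was 0.13 for Car8, 0.16 for Rtn4rl2 and 0.14 for Snord3b2. With median-centred values the difference was −0.094 for Actb and −0.25 for Alb. With quantile-normalized values the difference was −1.07 for Alb and −0.82 for Gabre. With voom on recovered reads the difference was 0.28 for Car8, 0.60 for Rtn4rl2 and 0.56 for Snord3b2. Without frozen brain the difference was −2.48 for Alb, 1.72 for Car8, −2.28 for Gabre, 0.089 for Kdm5d, 1.52 for Rtn4rl2, 1.87 for Snord3b2 and −0.58 for Xist. Without FFPE brain the difference was −2.98 for Fat2, −2.73 for Gabra6, 0.25 for Hcn4, −0.24 for Mef2c and −2.97 for Prl. Without frozen heart the difference was −0.94 for Alb, 1.00 for Car8, −0.41 for Gabre, 1.34 for Rtn4rl2 and 0.98 for Snord3b2. Without FFPE heart the difference was 0.15 for Hcn4. Over 52 lists, 1329 of 1456 counts and medians under alternatives stayed near the value given and 127 moved, 36 of them with CPM of all reads. With 2 libraries for each organ, genes of a few reads are limited by depth.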
